A study of Rattus norvegicus with 56 samples.

Results

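In brain tissue of rats with intracerebral haemorrhage, 730 regions carried H3K4me3 in each of 4 untreated groups and little H3K9ac. Overlapping H3K4me3 peaks of the 4 untreated peak lists were joined to 56333 regions. Of these, 18912 held a peak in every one of the 4 lists and are called constitutive here. A constitutive region was counted as poor in H3K9ac when it overlapped a peak (by at least 1 bp) in at most 2 of the 4 untreated H3K9ac lists and did not overlap an H3K27me3 peak in all 4 untreated H3K27me3 lists. The 730 regions made up 3.86% of the constitutive regions (95% Wilson interval 3.59 to 4.14). The regions were thus chosen by the H3K4me3, H3K9ac and H3K27me3 peaks of untreated tissue, and what follows on those peaks describes the choice and was not tested. The remaining constitutive regions serve as the background. They were 14119 regions with H3K9ac in 3 or 4 lists and H3K27me3 not in all 4, called acetylated here, and 4063 regions with H3K27me3 in all 4 lists.

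Trimethylation of lysine 4 on histone H3 (H3K4me3) marks the start sites of active genes and of many silent genes that are held ready, and is laid down by SET1 and MLL complexes. Acetylation of lysine 9 on the same histone (H3K9ac) is laid down by acetyltransferases such as GCN5 and PCAF, and most often accompanies H3K4me3 where transcription begins. Trimethylation of lysine 27 (H3K27me3) is the mark of Polycomb repressive complex 2, and promoters that carry it together with H3K4me3 are known as bivalent.

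Chromatin immunoprecipitation followed by sequencing (ChIP-seq) covered the side of the brain with the haemorrhage (ipsilateral) and the opposite side (contralateral), in rats of 13 or 21 months by the sample labels, although the older rats are 22 months old in the series text. Every group came from rats with haemorrhage, so the contralateral side is no tissue of a healthy animal. H3K9ac and H3K27me3 were also profiled with plasma: 21-month rats received it from 3-month or from 22-month donors, and their ipsilateral side was used. Each untreated list pooled 2 ChIP and 2 input libraries and each plasma list used 1 of each, so no value here has a spread between replicates, no test of the groups was made, and the intervals over regions cover counting error only. Neighbouring regions are not independent of each other. Whether paired libraries of a group stem from different animals is not stated in the labels. Each untreated mark and age had a processing folder of its own and the plasma lists shared another, so age and plasma cannot be told apart from processing. The tissue held many cell types, and fewer cells with a mark cannot be told apart from less of the mark in each cell. Tags kept by the peak caller ranged from 71357444 to 91768484 over the H3K4me3 lists, from 19323327 to 99213634 over the untreated H3K9ac lists, from 35621686 to 117740131 over the untreated H3K27me3 lists and from 41700562 to 57426239 over the plasma lists. The 13-month ipsilateral H3K9ac list stood apart, with 81.8% of its ChIP tags removed as duplicates. When it was left out and at most 1 of the other 3 H3K9ac lists was allowed, 528 regions remained, each of them among the 730. No annotation of the genome build of the lists was at hand, so regions are named by position, 1-based, no gene was assigned to them, and the tissue was not checked against marker genes.

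The H3K4me3 of the regions poor in H3K9ac was short and weak. Their median length was 562 bp, with quartiles of 373 and 794 bp and a range of 163 to 3831 bp, against a median of 1675 bp for acetylated regions and 1630 bp for regions with H3K27me3 in all 4 lists. Of the 730 regions, 209 (28.6%, interval 25.5 to 32.0) were 400 bp or shorter, against 3.11% of all constitutive regions. Only 14 were longer than 2000 bp, or 1.92%, against 36.0% of acetylated regions. Strength was read as the authors' fold enrichment over local background, a value of each peak, and a region was given the fold of its strongest peak in a list. The lowest of the 4 H3K4me3 folds of a region had a median of 3.03 (quartiles 2.47 and 4.02, range 1.29 to 18.1), against 8.33 for acetylated regions and 4.99 for regions with H3K27me3 in all 4 lists. It was under 4 in 544 of the 730 regions (74.5%) and in 17.0% of acetylated regions. A fold of 8 or more in every list was reached by 32 regions (4.38%), against 43.3% of all constitutive regions.

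**Figure D1:**
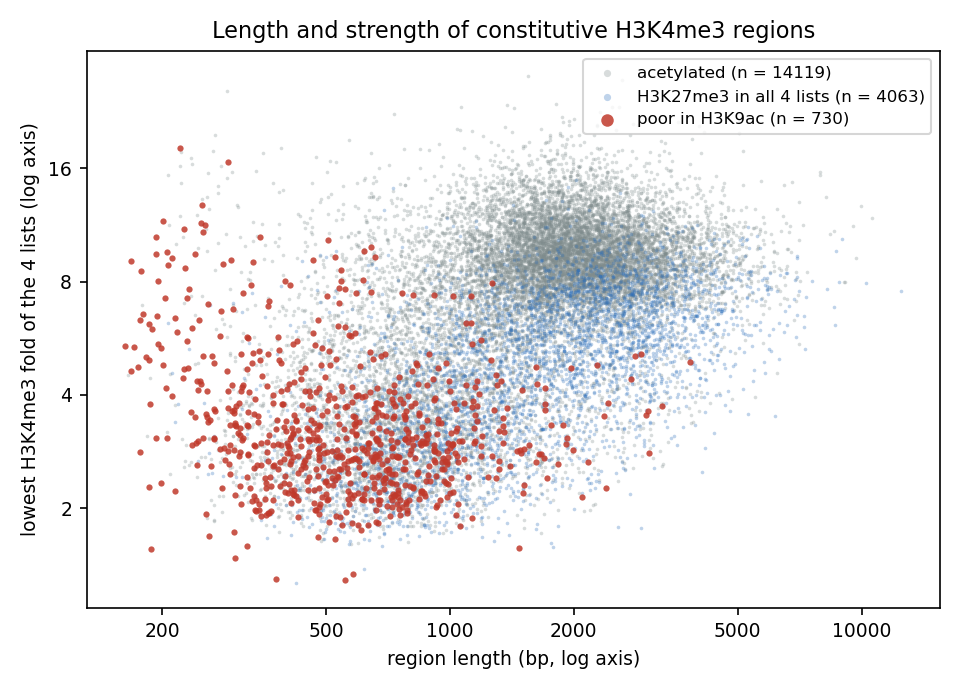
Each point is a constitutive H3K4me3 region, with its length in bp on the horizontal axis and the lowest of its 4 H3K4me3 folds on the vertical axis, both logarithmic. Most of the 730 regions poor in H3K9ac lie at the lower left (median 562 bp and fold 3.03), acetylated regions centre on 1675 bp and 8.33, and a group of short regions poor in H3K9ac reaches folds above 8 at the upper left.

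The share of constitutive regions that were poor in H3K9ac fell with their length. Of the 102 constitutive regions of up to 250 bp, 60 were poor in H3K9ac (58.8%, interval 49.1 to 67.9). The share was 27.9% among regions over 300 and up to 400 bp, 8.73% over 600 and up to 800 bp, and 0.209% over 2000 bp, where 14 of 6683 regions were poor in H3K9ac. The fall with length was also present among regions with a lowest fold of 8 or more. There, 15 of 28 regions of up to 250 bp were poor in H3K9ac, 4 of 165 over 600 and up to 800 bp, and none of the 4051 over 2000 bp. A longer region has more bases that an H3K9ac peak can touch, and how far this alone sets the relation was not tested.

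**Figure D2:**
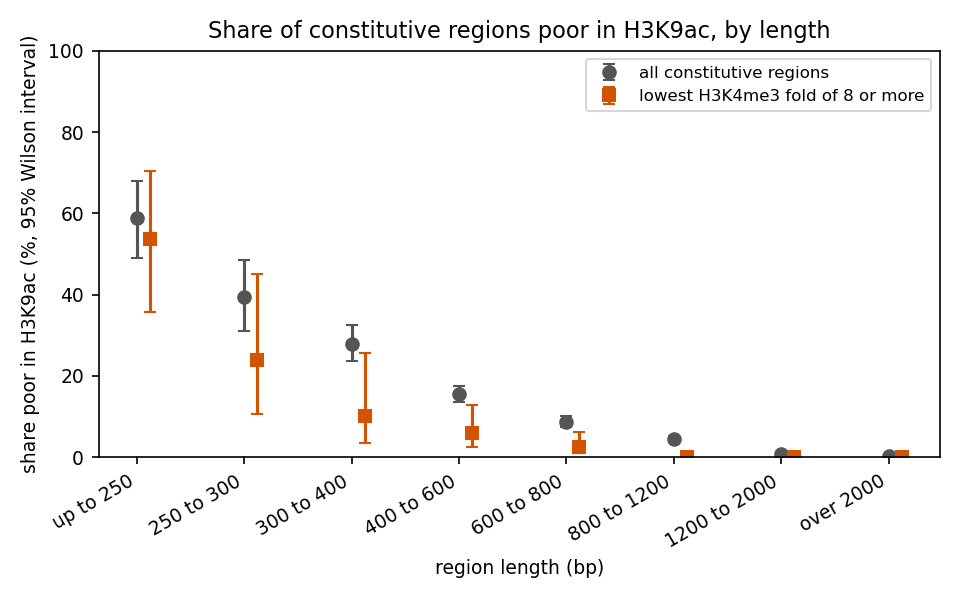
The vertical axis gives the share of constitutive H3K4me3 regions that were poor in H3K9ac in % with 95% Wilson intervals, and the horizontal axis gives length bands in bp. Circles are all constitutive regions, falling from 58.8% at up to 250 bp to 0.209% over 2000 bp, and squares are those with a lowest H3K4me3 fold of 8 or more, which fall in the same way.

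In the 4 H3K4me3 lists the median fold of the regions poor in H3K9ac was 3.95 for ipsilateral tissue at 13 months, 3.61 for contralateral tissue at 13 months, 4.36 for ipsilateral tissue at 21 months and 5.55 for contralateral tissue at 21 months. For acetylated regions the medians in the same order were 9.42, 9.14, 11.4 and 15.5. The contralateral list of 21 months was thus highest for both kinds of region, and the regions poor in H3K9ac were the weaker in every list. The bases of a region covered by peaks had medians of 308, 268, 373 and 452 bp in the same order.

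The order of the lists within a region was less uniform than in the background. At 13 months the fold was higher on the ipsilateral side in 391 of the 730 regions (53.6%, against 54.4% of all constitutive regions), with a median ratio of ipsilateral to contralateral of 1.03. At 21 months it was higher on the ipsilateral side in 214 regions (29.3%, against 15.0%), with a median ratio of 0.822 against 0.741 in acetylated regions. From 13 to 21 months the fold was higher ipsilaterally in 466 regions (63.8%, against 72.4%) and contralaterally in 590 (80.8%, against 95.7%). The median ratio of 21 to 13 months was 1.14 ipsilaterally and 1.48 contralaterally, the latter against 1.70 in acetylated regions. The strongest of the 4 folds was that of the 21-month contralateral list in 446 regions (61.1%, against 80.8%). At 13 months the split between sides was that of the background, whereas the lead of the 21-month contralateral list was less frequent. The folds were set side by side without correction for the depth or background of the lists.

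**Figure D3:**
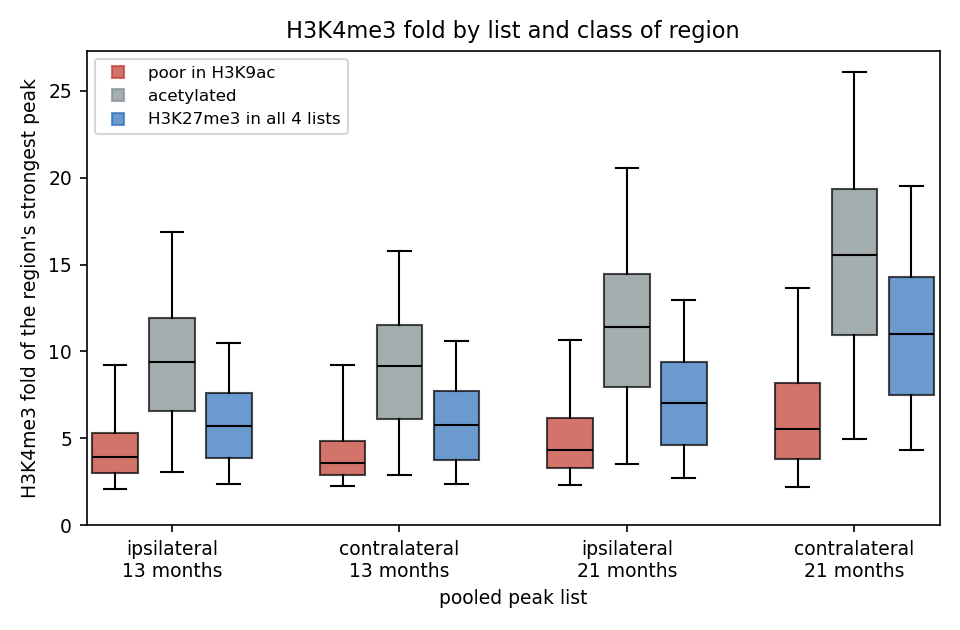
Boxes show the median and quartiles, and whiskers the 5th and 95th percentiles, of the H3K4me3 fold of each region's strongest peak in the 4 untreated lists. Regions poor in H3K9ac lie lowest in each list, with medians of 3.95, 3.61, 4.36 and 5.55 from left to right.

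A small set of the regions had strong H3K4me3. The 32 regions with a fold of 8 or more in every list were 168 to 658 bp long, with a median of 253.5 bp, whereas the 7703 acetylated regions of that strength had a median of 1967 bp. In these 32 regions the summits of the 4 lists lay within a median of 16 bp of each other (at most 210 bp). No untreated list held H3K27me3 in 27 of them (84.4%), close to the 87.2% of acetylated regions of that strength. Held to 400 bp or less, 23 regions poor in H3K9ac remained beside 56 acetylated ones. H3K9ac was found in neither plasma list in 15 of the 23 and in both in 2 of them, while 4 of the 56 acetylated regions had it in neither and 41 in both. This set of short and strong regions was picked out after its values were seen. Of the 32, 2 lay on scaffolds not placed on a chromosome. No track of mappability or of problem regions was used here, so whether these folds reflect the mark or the mapping of reads was not tested.

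The strongest region lay on chromosome 6, from 75865671 to 75865891. It was 221 bp long, and its H3K4me3 folds were 18.1 in ipsilateral and 19.7 in contralateral tissue at 13 months, and 20.2 and 18.4 at 21 months. The 4 folds were close together. H3K9ac was called in 1 list, the 21-month ipsilateral one, with a fold of 10.1, and neither plasma list held a peak of H3K9ac or H3K27me3. The nearest constitutive region lay 233 bp away. On chromosome 14, from 51462198 to 51462398 (201 bp), the H3K4me3 folds were 14.9, 11.6, 11.9 and 19.98 in the same order of lists, and the single H3K9ac peak, of 21-month ipsilateral tissue, had a fold of 2.99. On chromosome 15, from 24197704 to 24197958 (255 bp), the folds were 11.3, 11.3, 17.0 and 14.1. That region had no peak of H3K9ac or H3K27me3 in any of the 12 other lists, untreated or with plasma, and its summits lay within 2 bp. The rest of the 6 strongest regions on assembled chromosomes lay on chromosomes 1 and 7. They ran from 195683663 to 195683910 on chromosome 1, and from 10856903 to 10857128 and from 10105417 to 10105668 on chromosome 7. Their lowest folds were 11.5, 11.0 and 10.8. All 6 were between 201 and 255 bp long and without H3K27me3 in any list. Lowest folds of 16.7 and 12.8 were also reached on unplaced scaffolds, which this ranking left out.

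The longest regions were of moderate strength and differed between lists in what they covered. The longest, on chromosome 13 from 21677881 to 21681711 (3831 bp), had H3K4me3 folds of 6.57, 4.89, 6.41 and 9.60 in the order above. Its peaks covered 1855, 1981, 3264 and 3831 bp, so its full length came from the 21-month contralateral list. It held H3K9ac in both 21-month lists, with folds of 2.48 and 3.09, and in both plasma lists, with folds of 2.49 and 2.62, and no H3K27me3. The nearest constitutive region lay 2461482 bp away. On the X chromosome, from 16766531 to 16769518 (2988 bp), folds were 3.55, 5.80, 5.35 and 9.89, and no H3K9ac or H3K27me3 peak was called in any list. Its peaks covered 627, 1327, 2542 and 2988 bp. The other three of the 5 longest, on chromosome 14 from 100180815 to 100184087, on chromosome 7 from 59350751 to 59353793 and on chromosome 13 from 12254970 to 12257994, were 3273, 3043 and 3025 bp long. Their H3K27me3, at folds of 2.19 to 4.41, was called in 21-month tissue and in no 13-month list.

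Most of the regions held H3K9ac in at least 1 untreated list. No untreated H3K9ac list held a peak in 197 of the 730 regions, 1 list did in 217 and 2 lists did in 316. The peaks came most often from the 21-month lists. H3K9ac was called in 138 regions in ipsilateral tissue at 13 months (18.9%, against 92.3% of all constitutive regions) and in 174 in contralateral tissue at 13 months (23.8%, against 95.3%). At 21 months it was called in 232 ipsilaterally (31.8%, against 96.0%) and in 305 contralaterally (41.8%, against 93.8%). The rule fixes the low level of these counts. Their order over the 4 lists was also the order of the number of tags kept, from 19323327 to 99213634, and of the number of peaks, from 69557 to 120348, and the part of depth in it was not tested. Where 2 lists held a peak, they were the same side at both ages in 103 regions, both sides at 1 age in 80, and opposite sides at different ages in 133. The H3K9ac peaks present were weaker than those of acetylated regions, with median folds of 4.51, 3.62, 3.57 and 3.39 against 10.1, 9.68, 7.18 and 5.13.

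Regions just inside and just outside the limit of 2 H3K9ac lists had H3K4me3 of near strength. The 316 regions with H3K9ac in exactly 2 lists had a median length of 577 bp and a median lowest fold of 3.14. The 691 regions with H3K9ac in exactly 3 lists, just outside the limit, had 675 bp and 3.21. The 13428 regions with H3K9ac in all 4 lists had 1717 bp and 8.50. In length and fold, the regions just inside the limit were thus close to those just outside, and those with all 4 lists stood apart. Of the regions with exactly 2 lists, the one with the highest lower fold lay on chromosome 3, from 153239906 to 153240320 (415 bp). Its H3K9ac folds were 8.25 in ipsilateral tissue at 13 months and 6.82 in contralateral tissue at 21 months, with no peak in the other untreated lists, and 3.04 and 4.56 with plasma of 3-month and of 22-month donors, respectively. Its H3K4me3 folds were 9.42, 5.47, 9.91 and 8.44. The other four named by this measure lay on chromosome 1 from 148179709 to 148179943, chromosome 15 from 111190499 to 111190774, chromosome 10 from 75422541 to 75422708 and chromosome 5 from 73907392 to 73907917, and their lower H3K9ac folds were 6.14, 6.12, 6.07 and 6.07. All 5 lacked H3K27me3 in every list.

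Most of the regions without H3K9ac in a list were not beside an H3K9ac peak either. Of the 197 regions without any untreated H3K9ac, 41 (20.8%) lay within 1 kb of an untreated H3K9ac peak, 72 (36.5%) within 5 kb, and 69 (35.0%) more than 50 kb from one. The median distance was 18.4 kb. These distances were not set beside those of other regions, so whether they are long or short for a constitutive region is not known. When H3K9ac and H3K27me3 peaks within 1 kb were counted as overlapping, 505 regions were left.

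The plasma lists played no part in choosing the regions, and they too held H3K9ac there less often than in the other constitutive regions. With plasma of 3-month rats, H3K9ac was called in 202 of the 730 regions (27.7%, interval 24.5 to 31.0), against 87.0% of all constitutive regions and 93.4% of acetylated ones. With plasma of 22-month rats it was called in 362 (49.6%, interval 46.0 to 53.2), against 96.6% and 99.0%. Both plasma lists held it in 120 regions (16.4%, against 86.2% of all constitutive regions), and neither did in 286 (39.2%, against 2.62%). The share was higher with plasma of 22-month rats in all 3 classes of region, and that list was the longer, with 123863 peaks against 50651 at nearly the same number of ChIP tags, 56130825 against 57426239. Each plasma group had 1 ChIP library, so the difference between them is that between those libraries.

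Plasma H3K9ac was also less frequent than in acetylated regions of like H3K4me3 fold. Among regions with a lowest H3K4me3 fold of 3 to 4, H3K9ac with plasma of 3-month rats was called in 31.4% of the regions poor in H3K9ac and in 79.0% of acetylated regions. At a fold of 4 to 6 the shares were 26.1% and 88.9%, and at 8 or more 21.9% and 99.6%. With plasma of 22-month rats the shares were 50.5% and 96.4% at a fold of 3 to 4, 48.7% and 98.2% at 4 to 6, and 40.6% and 99.9% at 8 or more. In acetylated regions the share rose with the fold of H3K4me3, and in regions poor in H3K9ac it was no higher at the top than at the bottom. The gap was thus wider at a fold of 8 or more than at 3 to 4, with 32 regions poor in H3K9ac at the upper end. Length was not matched in these bands, and at 8 or more the medians were 253.5 bp and 1967 bp. Among regions of up to 250 bp, H3K9ac with plasma of 3-month rats was called in 11.7% and in 41.7% of acetylated regions. Over 800 and up to 1200 bp the shares were 30.1% and 89.5%. The part of length in the gap was not tested.

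**Figure D4:**
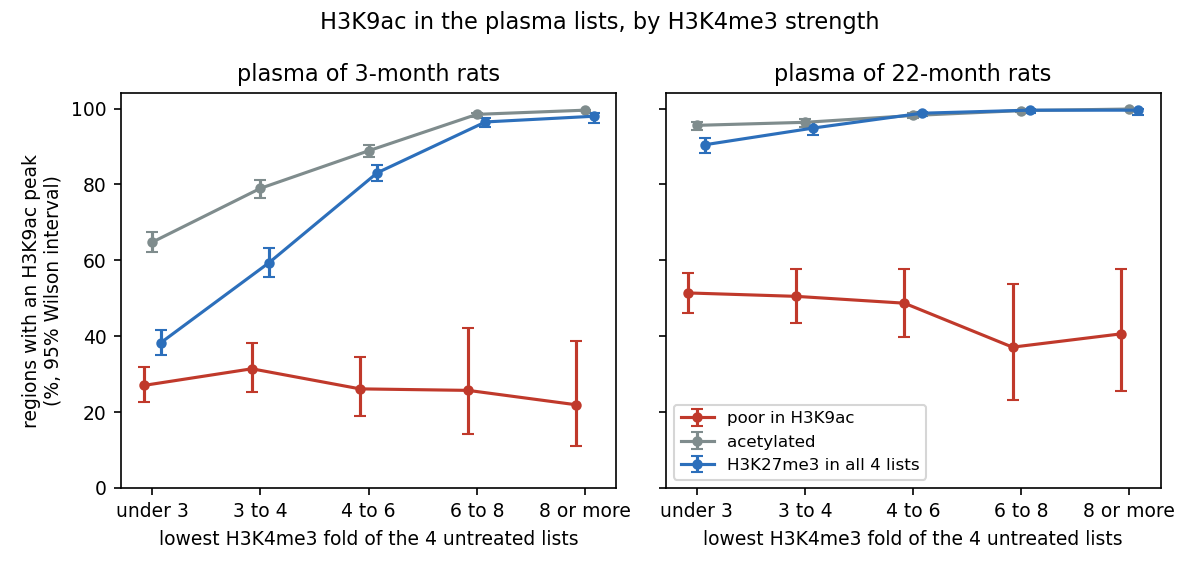
The share of regions with an H3K9ac peak in the plasma lists, in % with 95% Wilson intervals, is plotted by the lowest H3K4me3 fold of untreated tissue, with plasma of 3-month rats on the left and of 22-month rats on the right. Regions poor in H3K9ac stay between 21.9% and 31.4% on the left and between 37.1% and 51.4% on the right, below the other 2 classes in every band.

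The 2 plasma lists followed untreated H3K9ac in different ways. With plasma of 22-month rats the share with H3K9ac rose from 21.3% of regions without untreated H3K9ac to 45.6% with 1 list and 69.9% with 2. Just outside the limit it was 88.0% with 3 lists. With plasma of 3-month rats it was 20.8%, 20.7% and 36.7%, and 56.7% with 3 lists. The regions without untreated H3K9ac included 60 of the 68 regions with H3K27me3 in both plasma lists. Of these 68, 36 held H3K9ac with plasma of 3-month rats and 2 with plasma of 22-month rats. The part of this subset in the difference between the plasma lists was not tested. The nearest untreated tissue in design is the 21-month ipsilateral side. Of the 232 regions with H3K9ac there, 62.5% (interval 56.1 to 68.5) had it with plasma of 22-month rats, against 43.6% (39.3 to 48.0) of the 498 regions without. With plasma of 3-month rats the order was the opposite, 21.6% (16.7 to 27.3) of the 232 and 30.5% (26.6 to 34.7) of the 498. Because a region could hold at most 2 untreated H3K9ac peaks, a peak in 1 list makes a peak in the others less likely by construction.

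The strongest H3K9ac in both plasma lists was on chromosome 10, from 95123592 to 95123953 (362 bp), with folds of 6.43 and 8.05 for plasma of 3-month and 22-month rats. In untreated tissue H3K9ac was called there on the contralateral side at both ages, with a fold of 4.66 at 21 months and a higher one at 13 months, and in neither ipsilateral list. The plasma lists, which are of ipsilateral tissue, thus held a peak where untreated ipsilateral tissue had none. Its H3K4me3 folds were 8.18, 8.31, 6.88 and 9.51. On chromosome 1, from 15801274 to 15801772 (499 bp), the plasma folds were 6.37 and 14.1, and the sole untreated H3K9ac peak, in ipsilateral tissue at 13 months, had a fold of 14.5, although H3K4me3 was weak, at 2.36 to 3.04. The region on chromosome 7 from 10105417 to 10105668, one of the 6 strongest in H3K4me3 on assembled chromosomes, had plasma folds of 6.28 and 13.8. The other two were on chromosome 4, from 18148067 to 18148531 with 5.92 and 5.61, and from 22227291 to 22227688 with 6.05 and 5.32. None of the 5 held H3K27me3 in any list.

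Polycomb marking was present at many of the regions, often in more than 1 untreated list, while the rule left out regions with it in all 4. At least 1 untreated H3K27me3 list held a peak in 332 of the 730 regions (45.5%, interval 41.9 to 49.1), against 41.3% of all constitutive regions and 24.2% of acetylated ones. The share in all constitutive regions includes the 4063 with H3K27me3 in all 4 lists, which the rule kept out of the 730. The share depended on the peaks entered and on the length of the lists. With a −log10 q-value of at least 10 it was 30.3%, against 25.6% of all constitutive and 13.8% of acetylated regions, and with all lists of a mark brought to the same number of peaks it was 24.4%, against 28.1% and 13.4%. It thus lay above the share of acetylated regions in these settings and on either side of that of all constitutive regions. H3K27me3 was called in 117 regions in ipsilateral tissue at 13 months (16.0%, against 25.7%), 82 in contralateral tissue at 13 months (11.2%, against 25.3%), 200 in ipsilateral tissue at 21 months (27.4%, against 31.6%) and 218 in contralateral tissue at 21 months (29.9%, against 38.9%). The 21-month lists led. Both 21-month lists and neither 13-month list held a peak in 75 regions, and the reverse was found in 20. The 21-month H3K27me3 lists were also far longer, with 300668 and 367061 peaks against 117866 and 51805, and the part of list length in this was not tested. The median folds of the H3K27me3 peaks in these regions were 2.69, 3.52, 2.88 and 3.16.

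H3K27me3 was more frequent where untreated H3K9ac was missing altogether. It was called in at least 1 untreated list in 106 of the 197 regions without H3K9ac (53.8%, interval 46.8 to 60.6), in 42.9% of the regions with H3K9ac in 1 list and in 42.1% of those with 2. The intervals with 1 and 2 lists (36.5 to 49.5 and 36.8 to 47.6) overlapped that without. Regions without any untreated peak of H3K9ac or H3K27me3 numbered 91 of the 730. The rule takes in every such constitutive region, so these were 91 of all 18912. Some of the 91 held a peak in a plasma list, and a missing peak may be a mark below the caller's cutoff.

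The strongest untreated H3K27me3 was on chromosome 1, from 264960183 to 264960851 (669 bp). At 21 months its folds were 7.26 in ipsilateral and 16.5 in contralateral tissue, with no peak at 13 months or in either plasma list. H3K4me3 there had folds of 3.95, 3.60, 4.69 and 5.97, and H3K9ac was called in contralateral tissue at 13 months and ipsilateral tissue at 21 months, at 2.64 and 3.24, and in both plasma lists, at 2.66 and 6.27. On chromosome 2, from 551014 to 551322 (309 bp), H3K27me3 had folds of 15.8 in contralateral tissue at 13 months and 5.32 and 9.19 at 21 months, and none in ipsilateral tissue at 13 months. The side without H3K27me3 at 13 months had the higher H3K4me3 of that age, 8.35 against 3.13. At 21 months the contralateral side was higher in both marks, with H3K4me3 at 10.97 against 4.42. The other three named for H3K27me3 lay on chromosome 7 from 99483342 to 99483547, chromosome 3 from 95713428 to 95713861 and chromosome 13 from 91161566 to 91161992, and their highest untreated H3K27me3 folds were 10.1, 9.89 and 9.48.

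In the plasma lists, H3K27me3 was called in a minority of the regions, most of them without untreated H3K9ac. It was called in 89 of the 730 regions with plasma of 3-month rats (12.2%), against 15.7% of all constitutive regions and 1.01% of acetylated ones. With plasma of 22-month rats it was called in 97 (13.3%), against 11.8% and 0.857%. Both plasma lists held it in 68 regions (9.32%), close to the 10.2% of all constitutive regions, most of which came from regions with H3K27me3 in all 4 untreated lists. In acetylated regions the share was 0.212%, or 30 of 14119. Of the 68, 60 were among the 197 regions without untreated H3K9ac, which is 30.5% of those 197. The share with both was 2.76% of the regions with H3K9ac in 1 list and 0.633% of those with 2.

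**Figure D5:**
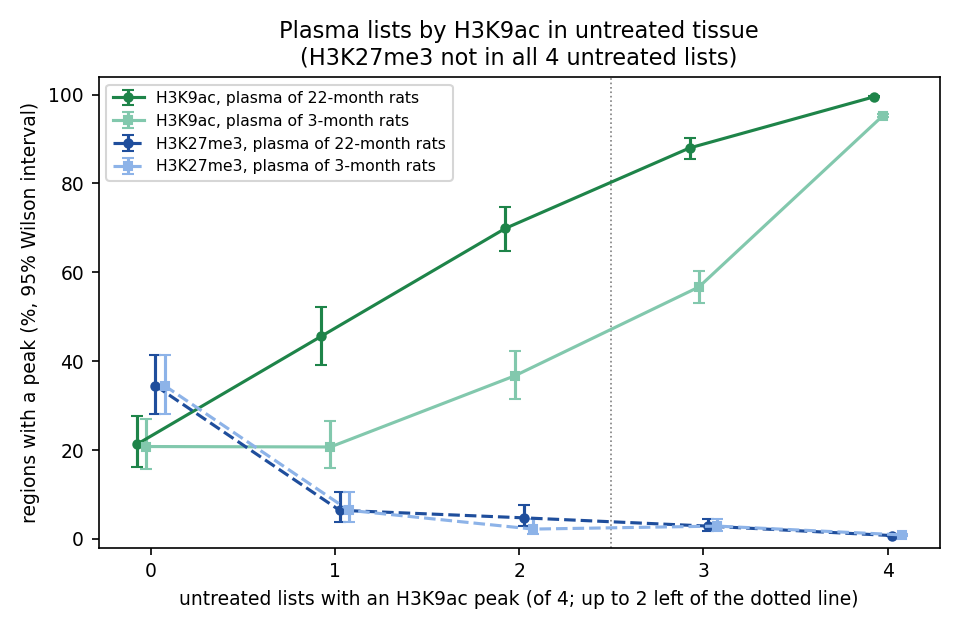
The share of constitutive H3K4me3 regions with a peak in each of the 4 plasma lists, in % with 95% Wilson intervals, is plotted against the number of untreated lists with H3K9ac, for regions without H3K27me3 in all 4 untreated lists; the regions poor in H3K9ac are those with 0 to 2 lists. H3K27me3 falls from 34.5% at 0 lists to 6.45% at 1 list in both plasma lists, while H3K9ac with plasma of 22-month rats climbs from 21.3% to 69.9% at 2 lists.

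The 68 regions with H3K27me3 in both plasma lists had weak H3K4me3, with lowest folds of 1.30 to 4.13 and a median of 2.19, against a median of 3.08 in the other 662. Their median length, 553.5 bp, was close to the 563.5 bp of the others. In untreated tissue their H3K27me3 came from the 13-month lists, with a peak in 39 regions in ipsilateral and 34 in contralateral tissue at that age, and from the 21-month lists in 10 and 6. The other 662 regions showed the opposite order, with 78 and 48 at 13 months and 190 and 212 at 21 months. All constitutive regions had that order too, with 25.7% and 25.3% at 13 months and 31.6% and 38.9% at 21 months. H3K9ac was called in 36 of the 68 with plasma of 3-month rats and in 2 with plasma of 22-month rats. The order was again the reverse in the other 662, with 166 and 360, and in all constitutive regions, with 87.0% and 96.6%. The plasma H3K27me3 folds of the 68 had medians of 4.57 and 6.50. Chromosome 1 held 22 of the 68, beside 93 of the 730 regions and 2275 of the 18912 constitutive regions. Chromosome 7 held 13 of the 68, beside 56 of the 730 and 1242 of the 18912. Adjacent regions can overlap the same plasma peak, so these counts are of regions and not of separate peaks. On chromosome 17, 2 of the regions lying 270 bp apart had the same plasma H3K27me3 folds, 9.66 and 14.45. When a −log10 q-value of at least 10 was required of every peak of every list, 1134 regions were poor in H3K9ac, and 1.50% and 0.970% of them held H3K27me3 with plasma of 3-month and of 22-month donors, against 5.09% and 2.77% of all constitutive and 0.148% and 0.0312% of acetylated regions.

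The position of the regions was not used in choosing them. They lay beside other constitutive H3K4me3 regions more often than the background in the main setting and in all alternatives but 1. Another constitutive region lay within 5 kb of 256 of them (35.1%, interval 31.7 to 38.6), against 24.6% of all constitutive regions, and within 1 kb of 186 (25.5%, interval 22.5 to 28.8), against 13.1%. The median distance, 17.8 kb, was near the 18.9 kb of acetylated regions, while the lower quartile was 0.964 kb against 5.24 kb, so the difference lay among the closest regions. The direction turned when H3K9ac and H3K27me3 peaks within 1 kb of a region were counted as well: of the 505 regions then poor in H3K9ac, 17.8% lay within 5 kb of another constitutive region, below the 24.6% of all constitutive regions. Such counting drops regions whose close neighbour holds H3K9ac, which lowers the share by construction, and how far was not tested. In every other alternative the share was 31.3% or more, and that of all constitutive regions was 24.7% or less. The neighbour within 5 kb was an acetylated region in 137 cases (53.5%), a region with H3K27me3 in all 4 lists in 64 (25.0%) and another of the regions poor in H3K9ac in 55 (21.5%). Around acetylated regions these shares were 86.9%, 8.72% and 4.33%. The neighbour was the longer of the pair in 205 of the 256 (80.1%) and the stronger in 192, against 49.8% and 49.0% of the pairs around acetylated regions. Regions that are themselves short and weak will more often have a longer and stronger neighbour, so these counts largely restate the length and fold given above.

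Their share of the constitutive regions varied between chromosomes. It was highest among the assembled chromosomes on chromosome 17, with 53 of 687 (7.71%, interval 5.95 to 9.95), and on chromosome 18, with 38 of 532 (7.14%, interval 5.25 to 9.65), and lowest of the autosomes on chromosome 19, with 8 of 511 (1.57%, interval 0.795 to 3.06). On the X chromosome it was 5.20%. On scaffolds not placed on a chromosome, 9 of 36 constitutive regions were poor in H3K9ac (25.0%, interval 13.8 to 41.1). None of 7 constitutive regions on the Y chromosome was.

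Some of the regions on chromosomes 17 and 18 lay in dense stretches. When regions poor in H3K9ac less than 100 kb apart were grouped, 573 stood alone, 43 groups held 2 and 14 groups held 3 or more, 71 regions in all, with at most 8 in a group. The 3 groups of chromosome 18 among these, at 29972372 to 30037019, 30375493 to 30582219 and 30814889 to 30910155, held 5, 8 and 6 regions. Over the whole stretch of 938 kb, 19 of 33 constitutive regions were poor in H3K9ac, 12 were acetylated and 2 had H3K27me3 in all 4 lists. The 19 had lowest folds of 1.94 to 4.70 (median 2.67). H3K9ac was missing from all untreated lists in 8 of them and from both plasma lists in 13, and H3K27me3 was present in at least 1 untreated list in 12.

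On chromosome 17, from 44705610 to 44841793, the group of 7 was of another kind. It lay among 18 acetylated regions, its lowest folds were 2.76 to 8.59 with a median of 7.04, and 6 of the 7 had no untreated H3K27me3. The other groups of chromosome 17 held 4 regions each and differed from one another. The group from 43801655 to 43831682 lay beside 5 acetylated regions, with lowest folds of 2.40 to 7.69 (median 5.07), and 3 of its 4 regions had no untreated H3K27me3. The group from 89438598 to 89468427 was weak, with lowest folds of 1.30 to 1.92 (median 1.51), each of its 4 regions had H3K27me3 in at least 1 untreated list, and 3 held it in both plasma lists.

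Some other groups also held regions with H3K27me3 in both plasma lists, though many of the 68 such regions lay outside groups of 3 or more. On chromosome 7, from 2141041 to 2202280, 7 constitutive regions lay within 61.2 kb, and all 7 were poor in H3K9ac and held H3K27me3 in both plasma lists. None of the 7 had an untreated H3K9ac peak. Their lowest H3K4me3 folds were 1.69 to 2.26. Each had H3K9ac with plasma of 3-month rats, with folds of 4.17, 3.34, 3.52, 4.45, 4.99, 1.74 and 5.47 in order of position, and none had it with plasma of 22-month rats. Their plasma H3K27me3 folds in the same order were 7.52, 1.91, 4.17, 5.02, 3.82, 9.56 and 1.88 for plasma of 3-month rats and 6.78, 6.49, 7.46, 7.20, 2.66, 2.66 and 7.46 for plasma of 22-month rats. In untreated tissue 5 of the 7 had H3K27me3, in each case in 13-month tissue and in neither 21-month list. On chromosome 1, all 7 constitutive regions from 39241409 to 39372475 and all 4 from 195805479 to 195844258 were likewise poor in H3K9ac with H3K27me3 in both plasma lists, at lowest H3K4me3 folds of 1.57 to 3.02 and 2.41 to 3.33. No track of mappability or of problem regions was used for these groups either, and the part of read mapping in their peaks was not tested.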

How the data were processed

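ChIP-seq of 3 histone marks in rat brain gave 28 ChIP and 28 input libraries, sequenced as paired ends per the labels' protocols. Tools in the submitters' processing notes are Bowtie2, cutadapt and HOMER, with neither a version nor a role. Per the file headers, narrow peaks passing a q-value of 0.05 were called by MACS 2.1.1.20160309, which read tags as single ends and kept 1 per position, so duplication lowers the tags that count. The 12 untreated lists each pooled libraries, 2 of ChIP and 2 of input, while a plasma list (4 in all) had 1 of each, per the file headers. For every peak the deposited lists hold a pileup (signal), a fold enrichment (ratio to local background), a −log10 p-value and a −log10 q-value, all computed by the authors' peak caller. The fold ranked and described regions, the −log10 q-value served in alternatives, and the signal and −log10 p-value were not used. The sources used here give no genome build for the deposited positions. The reference gene table is of another extent, since peaks lay beyond its last gene on 15 of 22 chromosomes, and it was not used.

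Peaks were joined and overlapped (at least 1 bp) with numpy 2.4.6 and pandas 2.3.3 under Python 3.11.15 (intervals by scipy 1.17.1, plots by matplotlib 3.10.9), and the overlap code was tested on simulated data. Shares have 95% Wilson intervals over regions. The design called for values without tests, because the pooled lists leave no replicates. The regions, the limits and the comparisons were chosen with earlier results of these data known, and the length and fold bands, the strong and short sets, the grouping at 100 kb and the comparison of plasma H3K9ac with the 21-month ipsilateral list after values were seen. Named regions, on assembled chromosomes, were the 6 with the highest lowest H3K4me3 fold, the 5 longest, and the 5 each with the highest lower H3K9ac fold of both plasma lists, the highest untreated H3K27me3 fold, and the highest lower H3K9ac fold among regions with exactly 2 H3K9ac lists. Regions in groups were named by their group. Gene lists and cell type markers in the design were not used, as genes were not assigned. Alternatives were stricter q-values, other overlap rules, equal list lengths, other limits, assembled chromosomes alone and leaving out the 13-month ipsilateral H3K9ac list.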

Additional observations from a re-analysis of the deposited data

How the results depend on the processing

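No paired analysis was possible because each list pools its libraries before peak calling, and leaving out a replicate was not possible for the same reason. Over 9 results and 10 alternatives, 44 of 90 values stayed within the interval of the main value (within 1.5 times for the number of regions) and 46 moved further. In every alternative, H3K9ac in each of the 2 plasma lists was less frequent in the regions poor in H3K9ac than in acetylated regions. In order, the main values were 730 regions, a median length of 562 bp, a median lowest fold of 3.03, 45.5% with untreated H3K27me3, plasma H3K9ac in 27.7% (plasma of 3-month rats) and 49.6% (22-month), plasma H3K27me3 in 12.2% and 13.3%, and 35.1% within 5 kb of another constitutive region. With a −log10 q-value of at least 5, length was 626 bp, fold 3.68, untreated H3K27me3 37.3% and plasma H3K27me3 5.70% and 5.19%. At 10 there were 1134 regions of 792 bp and fold 4.66, with untreated H3K27me3 at 30.3%, H3K9ac with plasma of 3-month rats at 19.6%, plasma H3K27me3 at 1.50% and 0.970%, and 31.3% within 5 kb. With peaks within 1 kb counted, untreated H3K27me3 was 59.0%, plasma H3K27me3 15.8% and 19.8%, and 17.8% lay within 5 kb, below the 24.6% of all constitutive regions, which the main value exceeded. With equal list lengths there were 1180 regions of 652 bp and fold 3.18, with untreated H3K27me3 at 24.4%, H3K9ac with plasma of 3-month rats at 36.9% and H3K27me3 with plasma of 22-month rats at 8.39%. With at most 1 H3K9ac list there were 414 regions, with plasma H3K9ac at 20.8% and 34.1% and plasma H3K27me3 at 19.8% in both lists. With no H3K9ac list there were 197, with fold 2.76, untreated H3K27me3 at 53.8%, plasma H3K9ac at 20.8% and 21.3% and plasma H3K27me3 at 34.5% in both. With no untreated H3K27me3 list, which sets that share to 0%, there were 398 regions of 516 bp and fold 3.39, with H3K9ac with plasma of 3-month rats at 31.9%, plasma H3K27me3 at 4.27% and 5.53%, and 38.7% within 5 kb. Without the 13-month ipsilateral H3K9ac list, H3K9ac with plasma of 22-month rats was 40.9% and plasma H3K27me3 15.9% and 16.9%. The limits on lists change the shares by their construction, as does counting peaks within 1 kb for the share within 5 kb. For the other changes the cause was not tested. Depth limits the absence of a peak: a region without a peak in a list may hold the mark below the caller's cutoff.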

Other observations

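Of the 9 regions poor in H3K9ac on unplaced scaffolds, 5 were 193 to 250 bp long. The strongest of the 9 had a lowest H3K4me3 fold of 16.7 over 290 bp, with folds of 18.8 in ipsilateral and 16.7 in contralateral tissue at 13 months, and 19.6 and 27.9 at 21 months. Its H3K9ac was called on the contralateral side at both ages, at folds of 5.40 and 4.55, and in neither plasma list. Another, of 250 bp, had a lowest fold of 12.8 and H3K9ac in contralateral tissue at 13 months and ipsilateral tissue at 21 months, at 3.77 and 5.50. The 3 of the 9 without untreated H3K9ac held H3K27me3 in both plasma lists.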
